A study of Mus musculus with 18 samples.

Results

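The genes described here are enzymes that split NAD: the sirtuins Sirt1, Sirt2, Sirt3, Sirt5, Sirt6 and Sirt7, and the poly(ADP-ribose) polymerases Parp1 and Parp2. They were chosen by symbol from a fixed list of 10 names, of which 8 had a row among the 10509 genes of the deposited table. The other 2 names, Cd38 and Bst1, had no row in that table and were not analysed here. The samples are pancreatic islets of mice after 12 weeks of high-fat diet, 10 with the gene for nicotinamide riboside kinase 1 (NRK1, gene Nmrk1) removed by an Ins1Cre driver (NRK1_BKO in the labels, called KO here) and 8 labelled NRK1_WT (called WT). The Ins1 promoter directs Cre to beta cells, whereas the libraries are of whole islets, so other islet cells are not targeted. The diet is common to KO and WT, and the labels give no age, sex or strain. Titles of KO and WT libraries alike begin with Ins1Cre, and whether the WT mice themselves carry Cre is not spelled out. The comparison asks how transcripts of islets on this diet differ when beta cells lack NRK1.

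NAD carries electrons in metabolism, and it is also consumed as a substrate. Sirtuins use it to take acyl groups off lysines of proteins, PARPs build chains of ADP-ribose from it at DNA breaks, and CD38 and BST1 turn it into the calcium-releasing messenger cyclic ADP-ribose. Each of these reactions frees nicotinamide, which cells rebuild into NAD, and NRK1 feeds the same pool from nicotinamide riboside. In mouse beta cells SIRT1 is known for raising insulin secretion, with Ucp2 among the genes that it represses.

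Values are log2 of CPM (read counts scaled to library size) plus a floor of 0.562 CPM, as deposited. CPM values given below have that floor removed. Libraries were made with a 3' end kit, in which a transcript yields about 1 fragment whatever its length, so levels were compared between genes without dividing by length. Over the listed genes the libraries held 2831137 to 4303680 reads, and 33 to 346 genes per library had no read. The libraries with the most such genes were WT 7, KO 2 and KO 3, and results are given with and without them where they matter. Nmrk1 itself was at 1.99 ± 0.49 in KO (SD, n = 10) and 2.01 ± 0.92 in WT (SD, n = 8) on the log2 scale, from 3 to 36 reads per library. The labels do not give the deleted part of Nmrk1, so its 3' end reads do not check the genotype. Of 10 beta-cell markers 9 were measured, and their mean log2 level ranged from 10.6 to 11.4 in KO and from 11.0 to 11.2 in WT. RNA of other cells was present too, and the mean log2 level of 10 measured acinar markers ranged from 1.84 to 7.31 in KO and from 2.12 to 7.17 in WT. In bulk islets, fewer cells of a type and less RNA per cell cannot be told apart.

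Levels of the 8 genes fell into an upper set of 3 (Sirt7, Sirt2 and Parp1), a middle set of 4 (Sirt3, Parp2, Sirt6 and Sirt1) and Sirt5 at the bottom. Over all 18 libraries the mean log2 level was 5.81 for Sirt7, 5.29 for Sirt2, 5.04 for Parp1, 3.61 for Sirt3, 3.45 for Parp2, 3.18 for Sirt6, 3.05 for Sirt1 and 1.42 for Sirt5. Within a library, Parp1 exceeded Sirt3 by 1.44 ± 0.52 (SD, n = 18) and was higher in 18 of 18 libraries, and Sirt1 exceeded Sirt5 by 1.62 ± 1.02 and was higher in 17. These were the 2 steps of 7 that were larger than their own spread. Sirt7 was above Sirt2 in 16 of 18 libraries, but the difference of 0.52 ± 0.56 was within its SD. Without KO 2 it was 0.57 ± 0.54, without KO 6 it was 0.58 ± 0.52, and without KO 2, KO 3 and WT 7 together it was 0.42 ± 0.38, each larger than its SD. Sirt3 and Parp2, Parp2 and Sirt6, and Sirt6 and Sirt1 differed by 0.13 to 0.27 on average, with SDs of 0.63 to 1.10. Among all listed genes, Sirt7 had a higher mean than 81.3% and Sirt5 a higher mean than 7.79%.

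**Figure D1:**
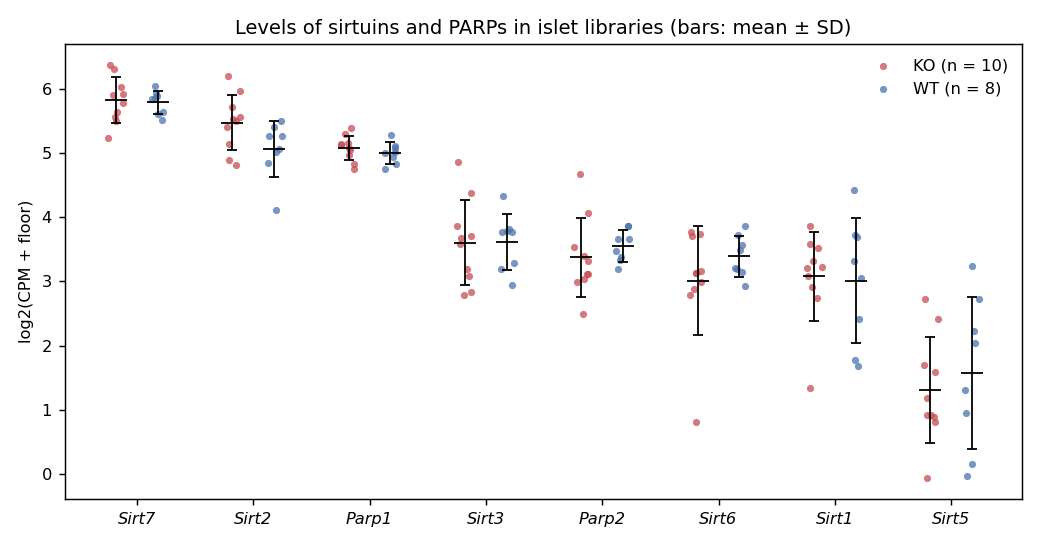
Log2 levels (log2 of CPM plus the floor) of the 8 genes in each library, ordered by mean level, with KO in red on the left and WT in blue on the right of each pair. Points are libraries and bars are mean ± SD (n = 10 KO and n = 8 WT). KO and WT overlap for every gene, and Parp1 has the narrowest spread.

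Summed over the 8 genes, the level was 180 ± 33.9 CPM in KO (SD, n = 10) and 167 ± 20.6 CPM in WT (SD, n = 8). Sirt7 supplied 32.3% ± 7.07 of this sum in KO and 33.4% ± 5.24 in WT, Sirt2 25.3% ± 5.52 in KO and 20.1% ± 3.33 in WT, and the mitochondrial Sirt3 and Sirt5 together 8.05% ± 2.78 in KO and 9.21% ± 2.63 in WT. Most of the nuclear sum of 75.1 ± 15.7 CPM in KO and 74.7 ± 9.93 CPM in WT came from Sirt7, at 57.9 ± 14.7 CPM in KO and 55.3 ± 6.88 CPM in WT. The nuclear Sirt1, at 8.61 CPM in KO and 9.17 CPM in WT, and Sirt6, at 8.50 CPM in KO and 10.2 CPM in WT, averaged less than the mitochondrial Sirt3, at 12.9 CPM in KO and 12.2 CPM in WT.

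The 8 genes showed no difference between KO and WT that passed the test. Limma called 0 of the 8 genes and 0 of all 10509 genes at a Benjamini-Hochberg adjusted p under 0.05, a background of 0%. At an unadjusted p under 0.05, limma had 567 genes of the whole table, or 5.4%, with 3.18% higher and 2.22% lower in KO, and 1 of the 8 genes, Sirt2, on the higher side. An exact rank-sum test called 0 genes as well, and had 535 genes of the table and 0 of the 8 below that unadjusted mark. Limma voom on recovered reads called 0 and had 546 and 0 there. KO and WT values overlapped for all 8 genes, and 0.00952% of the table (1 gene) had values that did not overlap. The 8 log2 fold changes had 4 above and 4 below 0 and a median of 0.010, against -0.0025 over all genes. The 95% interval lay inside a 2-fold change in either direction for 6 of the 8 genes and for 77.1% of all genes, and inside a 1.5-fold change for Sirt3, Sirt7 and Parp1. Those of Sirt5 and Sirt6 reached beyond a 2-fold decrease.

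**Figure D2:**
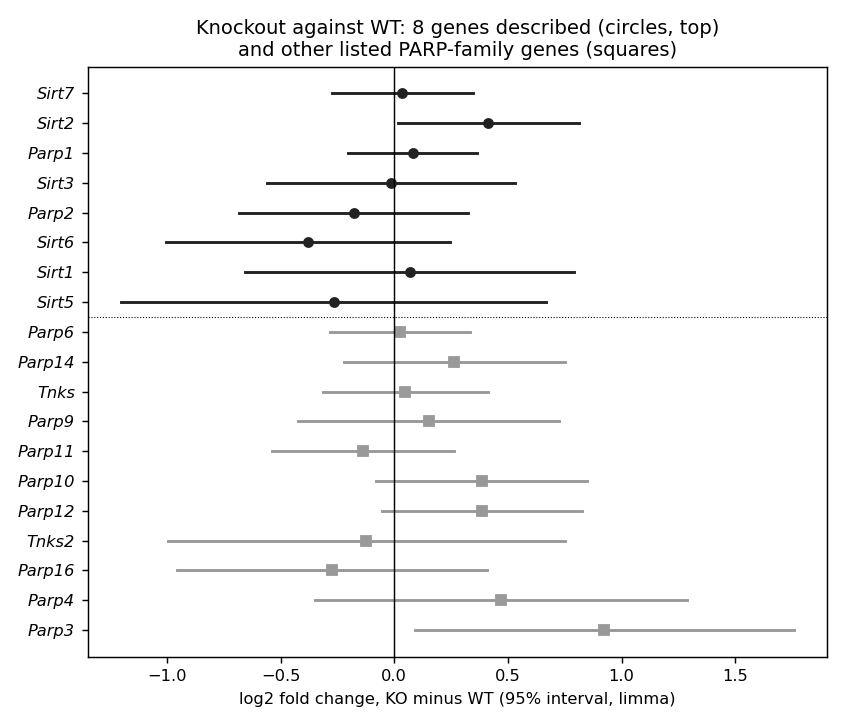
Log2 fold changes, KO minus WT, with 95% intervals from limma, for the 8 genes (black circles, ordered by level) and for 11 other listed genes of the PARP family (grey squares). Among the 8, only the interval of Sirt2 excludes 0, at 0.016 to 0.81, and no gene passed after adjustment over the table.

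Sirt2, the main cytosolic sirtuin, known for removing acetyl groups from alpha-tubulin, had the largest positive difference of the 8 genes. Its level was lowest at 27.7 CPM, had a median of 45.4 and was highest at 72.8 CPM in KO, against a lowest of 16.8, a median of 35.5 and a highest of 44.5 CPM in WT. The KO libraries KO 2 and KO 6 were the highest, and the WT library WT 7 was the lowest of all 18, at 41 reads. Of the 10 KO libraries, 6 lay above the highest WT library, and 1 of the 8 WT libraries lay below the lowest KO library, so the groups overlapped. On the log2 scale Sirt2 was at 5.48 ± 0.43 in KO (SD, n = 10) and 5.06 ± 0.44 in WT (SD, n = 8), a log2 fold change of 0.41 with an SE of 0.19, or 1.33-fold. It did not pass (limma p = 0.0422, adjusted p = 0.925), and permuting the genotypes in every possible way (exact, two-sided) gave p = 0.0598.

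The Sirt2 difference was positive in every alternative run, and its size depended on single libraries. Leaving out 1 library at a time gave 0.28 to 0.49, the lowest without WT 7 (limma p = 0.131, adjusted p = 0.984), and without KO 2, KO 3 and WT 7 it was 0.27 (limma p = 0.0985, adjusted p = 0.825). Titles carry an animal number, and in the 3 runs of consecutive numbers that hold both genotypes the difference was 0.24, 0.18 and 0.66, the last with 1 WT library. A run term in the fit of these 12 libraries left 0.33 (limma p = 0.166, adjusted p = 0.678). Set against another member in the same library, Sirt2 minus Sirt7 averaged -0.35 ± 0.59 in KO (SD, n = 10) and -0.73 ± 0.46 in WT (SD, n = 8), with an exact permutation p of 0.158 (two-sided). Sirt2 exceeded Sirt7 in 2 of 10 KO libraries and in 0 of 8 WT libraries. None of the marker genes of other cells passed the test, but several lists had fold changes mostly on one side. Alpha-cell markers had 6 of 6 measured genes of 7 below 0 and a median fold change of -0.62, and their mean log2 level ranged from 4.32 to 6.25 in KO and from 5.0 to 6.42 in WT. Delta-cell markers had 3 of 3 below 0, at 5.05 to 7.20 in KO and 5.35 to 7.19 in WT, and beta-cell markers 7 of 9. Endothelial markers had 7 of 9 above 0, at 4.34 to 5.20 in KO and 4.05 to 4.74 in WT, with the VEGF receptor gene Flt1 at 6.5 ± 0.39 in KO and 6.00 ± 0.32 in WT. Limma gave Flt1 p = 0.0058 and an adjusted p = 0.805. Fibroblast and stellate markers had 5 of 7 above 0, at 1.84 to 3.05 in KO and 1.5 to 2.97 in WT. Ductal markers had 5 of 6 above 0, at 4.46 to 5.63 in KO and 4.71 to 5.45 in WT. Ins2 took 37.7% to 56.1% of reads in KO and 33.4% to 45.9% in WT. Scaled to the reads outside Ins1 and Ins2, the Sirt2 difference was 0.43, and the part of these cell types in it was not tested.

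The nuclear sirtuins Sirt1, Sirt6 and Sirt7 did not differ detectably between KO and WT. Sirt7, a deacylase found mainly in nucleoli, was lowest at 37.0 CPM, had a median of 57.1 and was highest at 82.8 CPM in KO, against a lowest of 45.4, a median of 57.5 and a highest of 65.3 CPM in WT. Its medians were close, and KO libraries spanned the wider range, with KO 3 and KO 8 on top. The KO minus WT difference of Sirt7 was 0.035, 95% interval -0.27 to 0.35 (limma adjusted p = 0.987), and its sign turned under some alternatives, to -0.038 without KO 2, KO 3 and WT 7.

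Sirt1, the nuclear deacetylase studied most in beta cells, was lowest at 1.95 CPM, had a median of 8.73 and was highest at 14.0 CPM in KO, against a lowest of 2.66, a median of 8.59 and a highest of 20.9 CPM in WT. The low libraries were KO 3 at 5 reads and, among WT, WT 1 and WT 7, while WT 8 was the highest of all. KO minus WT came to 0.067, 95% interval -0.66 to 0.79 (limma adjusted p = 0.990), and its sign turned under some alternatives. At 5 to 77 reads per library the interval of Sirt1 reached a 1.73-fold increase.

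Sirt6, a chromatin deacetylase with roles in DNA repair and glucose metabolism, had the lowest fold change of the 8 genes, and its size depended on KO 9. Its level was lowest at 1.19 CPM, had a median of 8.22 and was highest at 13.1 CPM in KO, against a lowest of 7.09, a median of 9.68 and a highest of 14.0 CPM in WT. KO 9 stood apart with 5 reads, and the next lowest KO library was at 6.33 CPM. KO minus WT was -0.38, SE 0.30 (limma p = 0.225, adjusted p = 0.955) and -0.13 without KO 9 (limma p = 0.562, adjusted p = 0.957).

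Neither of the mitochondrial sirtuins passed the test, and Sirt3 was above the nuclear Sirt6 and Sirt1 in mean level while Sirt5 was the lowest of the 8 genes. Sirt3, the main mitochondrial deacetylase, was lowest at 6.37 CPM, had a median of 11.9 and was highest at 28.7 CPM in KO, against a lowest of 7.14, a median of 13.1 and a highest of 19.7 CPM in WT. KO 2 and KO 5 were the highest of the 18 libraries, and WT 2 came next. KO minus WT was -0.015, 95% interval -0.56 to 0.53 (limma adjusted p = 0.997), and its sign turned under some alternatives, to 0.15 in the 12 libraries fitted with a run term, and it was -0.25 without KO 2, KO 3 and WT 7. Sirt5, which removes succinyl, malonyl and glutaryl groups, was lowest at 0.390 CPM, had a median of 1.51 and was highest at 6.04 CPM in KO, against a lowest of 0.411, a median of 2.72 and a highest of 8.86 CPM in WT. These values came from 1 to 30 reads per library. Its log2 fold change of -0.27 had a 95% interval of -1.20 to 0.67 (limma p = 0.563, not past adjustment), so a 2-fold decrease lay within its error.

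Parp1, the sensor of DNA strand breaks that makes most of a cell's poly(ADP-ribose), was close to even over all 18 libraries. It was lowest at 26.3 CPM, had a median of 33.9 and was highest at 41.3 CPM in KO, against a lowest of 26.3, a median of 31.6 and a highest of 38.4 CPM in WT. KO and WT covered nearly the same range. KO minus WT was 0.080, SE 0.14, 95% interval -0.20 to 0.36 (limma p = 0.567, not past adjustment), or 1.06-fold, and leaving out 1 library at a time gave 0.044 to 0.12.

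Parp2, which works beside PARP1 in repair of single-strand breaks, was lowest at 5.08 CPM, had a median of 8.78 and was highest at 24.9 CPM in KO, against a lowest of 8.56, a median of 11.3 and a highest of 14.0 CPM in WT. WT libraries were close together, whereas 5 KO libraries lay below the lowest WT library and 2, KO 2 and KO 6, lay above the highest. KO minus WT was -0.18, SE 0.25 (limma p = 0.475, adjusted p = 0.974), -0.32 without KO 2 and -0.080 without KO 3. The difference in spread, an SD of 0.61 in KO (n = 10) and 0.25 in WT (n = 8), was not tested.

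The genes varied between libraries to unequal extents for their level. Parp1 had an SD within genotype of 0.18 log2 units, and 0.5% of the 200 genes nearest to it in level had a smaller one, where the median SD was 0.40. Counting whole reads at its level would by itself give an SD of 0.13, so its spread was 1.36 times that of counting alone. Under the other scalings and library sets tried, 0% to 3% of like-level genes had a smaller SD. Sirt1 was at the other end, with an SD of 0.83, larger than that of 89.0% of like-level genes and 3.31 times its counting spread. The SD of Sirt2 was 0.43, larger than 76.0% of like-level genes, but larger than 33.5% of them without KO 2, KO 3 and WT 7. That of Sirt6 was 0.67, larger than 69.0% of like-level genes, and larger than 0.5% of them without KO 9. Of the 8 genes, 5 had a larger SD than the median gene of their level. PCR copies are not independent molecules, so the counting spread is a lower limit.

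**Figure D3:**
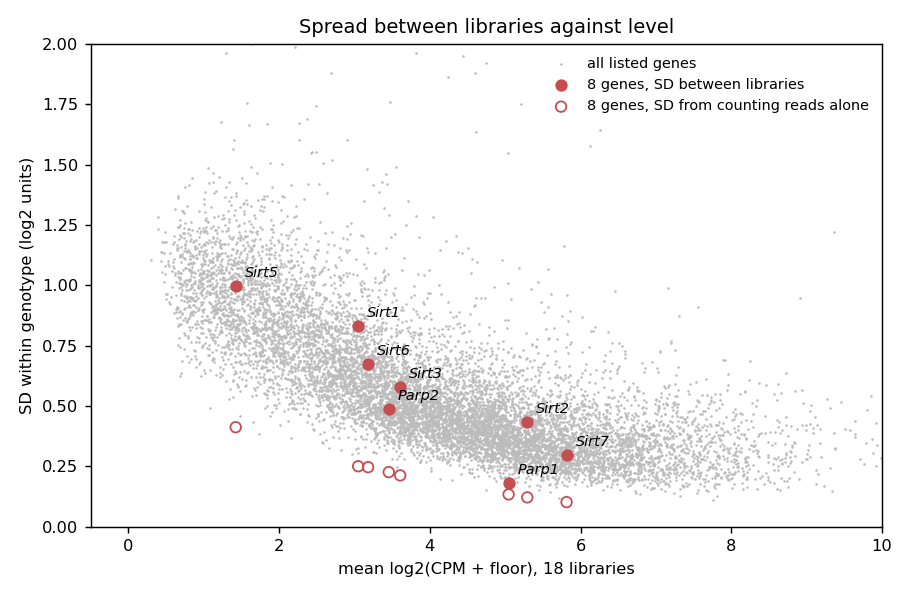
SD of the log2 level within genotype against mean log2 level over 18 libraries, for all listed genes (grey points; 30 genes lie outside the axes) and for the 8 genes (filled red). Open circles show the SD that counting reads alone would give, and Parp1, at an SD of 0.18, lies at the lower edge of the genes of its level.

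KO 2 and KO 3 had opposite extremes for several of the genes. KO 2 was the highest KO library for 5 of the 8 genes (Sirt1, Sirt2, Sirt3, Sirt5 and Parp2). KO 3 was the lowest for 4 of them (Sirt1, Sirt2, Sirt5 and Parp2) and the highest for Sirt7. The counts do not single out these genes, because no share over all listed genes is given here for KO 2 and KO 3. Both are among the 3 libraries with the most genes at no read, 320 in KO 2 and 227 in KO 3, and the part of this in their values was not tested.

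Of the 8 genes, 3 begin close to a listed neighbour that is read in the opposite direction. Genes that are not listed were not searched, so the other members may have such neighbours too. The sequence between the starts of 2 such pairs is shown because it lies upstream of both genes. Sirt2 (chromosome 7, 28766752 to 28788665, plus strand) starts 107 bases from Nfkbib, which encodes an inhibitor of NF-kB. Sirt3 (chromosome 7, 140863663 to 140882309, minus strand) starts 84 bases from Psmd13, which encodes a subunit of the proteasome lid. Sirt6 (chromosome 10, 81621787 to 81627792, minus strand) starts 28 bases from Ankrd24. The windows below hold 250 bases before and 50 bases after the start of the sirtuin, 5' to 3' on its own strand, from RefSeq on GRCm38.p6. Capitals mark the bases between the annotated starts of both genes. The Sirt2 window is chr7:28766502-28766801 on the plus strand and the Sirt3 window is chr7:140882260-140882559 on the minus strand.
Sirt2: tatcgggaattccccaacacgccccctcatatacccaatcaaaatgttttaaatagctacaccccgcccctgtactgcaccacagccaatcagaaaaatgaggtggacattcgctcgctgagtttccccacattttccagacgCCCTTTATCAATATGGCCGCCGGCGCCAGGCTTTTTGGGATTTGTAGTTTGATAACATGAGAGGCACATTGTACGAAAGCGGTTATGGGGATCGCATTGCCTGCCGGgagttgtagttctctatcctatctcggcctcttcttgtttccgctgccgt
Sirt3: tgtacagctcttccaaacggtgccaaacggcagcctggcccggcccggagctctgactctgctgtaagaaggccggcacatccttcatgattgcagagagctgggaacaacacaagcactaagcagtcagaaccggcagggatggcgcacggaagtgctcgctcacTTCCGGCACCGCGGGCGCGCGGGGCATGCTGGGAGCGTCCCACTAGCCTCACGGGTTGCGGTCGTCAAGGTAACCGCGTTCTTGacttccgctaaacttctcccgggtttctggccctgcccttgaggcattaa

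The Sirt2 window held 2 matches to CCAAT and 1 to GGGCGG, searched on both strands, all outside the bases between the starts, and the Sirt3 window held 0 of either. Of 3 more motifs searched, the Sirt3 window held 1 match to CCGGAAG and the Sirt2 window 0, and neither window held CACGTG or TGACGTCA. Among the 11099 windows of listed genes, 37.0% held CCAAT, 63.3% GGGCGG, 17.3% CCGGAAG, 9.90% CACGTG and 3.17% TGACGTCA. The windows of the 8 genes held 15 to 47 CG pairs each, with 16 in Sirt2 and 23 in Sirt3, against a median of 20 over windows of listed genes. These matches describe the sequence and say nothing of binding.

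The head-to-head neighbours had no difference between KO and WT that passed the test either. Nfkbib was at 4.98 ± 0.75 in KO (SD, n = 10) and 5.07 ± 0.49 in WT (SD, n = 8) on the log2 scale, with a fold change of -0.095 (limma adjusted p = 0.986), against 0.41 for Sirt2. Psmd13 was at 6.43 ± 0.90 in KO and 6.80 ± 0.43 in WT, with a fold change of -0.37 (limma adjusted p = 0.945), against -0.015 for Sirt3. Ankrd24 was at 6.19 ± 0.34 in KO and 6.46 ± 0.24 in WT, with a fold change of -0.27 (limma adjusted p = 0.945), against -0.38 for Sirt6. Psmd13 and Ankrd24 were read at a higher level than the sirtuin next to them.

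Across libraries, Pearson's r was negative for Sirt3 with Psmd13 and for Sirt2 with Nfkbib. It passed for the Sirt3 pair alone. With libraries left out, r moved toward 0 for the Sirt3 pair and became more negative for the Sirt2 pair. The 2 farthest libraries were not the same for both pairs, so those values are not alike. The correlations are over 18 libraries after each genotype's mean was subtracted, for 9 pairs of a member and a listed gene within 3000 bases, with p adjusted over the 9. For Sirt3 and Psmd13 Pearson's r was -0.67 (permutation p = 0.00249, adjusted p = 0.0224) and Spearman's rho was -0.45 (permutation p = 0.0603, adjusted p = 0.185). Without the 2 libraries farthest from the median of Sirt3 r was -0.38, still negative, so the size of r depended in part on those libraries. Within the runs of animal numbers (12 libraries) r was -0.57. KO 2 had the highest Sirt3 value and the lowest Psmd13 value, at 48 reads. Without KO 2, KO 3 and WT 7 r was -0.42 for this pair.

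For Sirt2 and Nfkbib r was -0.41 (permutation p = 0.0879, adjusted p = 0.152) and rho was -0.45 (permutation p = 0.0618, adjusted p = 0.185), which did not pass. Pearson's r was -0.77 without the 2 libraries farthest from the median of Sirt2, WT 7 and KO 3. Both genes were below their genotype's mean in WT 7 and KO 3, so libraries against a negative r were left out. It was -0.74 within the runs (12 libraries). KO 2, at 0.72 for Sirt2 and -1.77 for Nfkbib after its genotype's mean was subtracted, stayed in both sets. Without KO 2, KO 3 and WT 7 r was -0.68. None of the other 7 pairs had an adjusted p under 0.05 for either coefficient. At their 3' ends Sirt3 and Ric8a overlap by 69 bases on opposite strands, and no source used here says whether the counting used strand, so reads of these genes may not be fully separated.

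**Figure D4:**
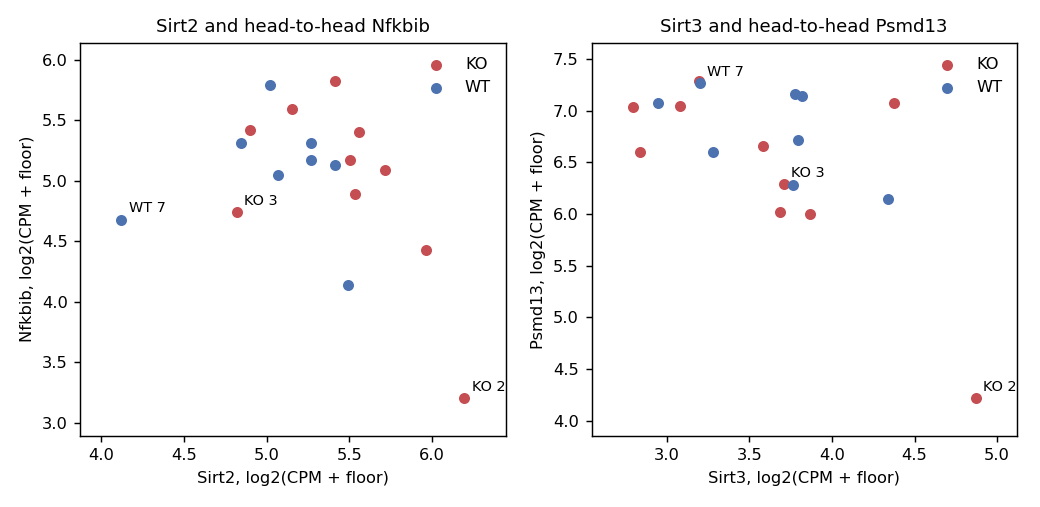
Log2 levels of Sirt2 against Nfkbib (left) and of Sirt3 against Psmd13 (right), with KO libraries in red and WT libraries in blue. KO 2 has the highest sirtuin value and the lowest neighbour value in both panels, and WT 7 has the lowest Sirt2 value.

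The genes whose pattern over libraries was most like that of Sirt2 were Zfp276, Upk3a, Sfrp5, Mrm3 and Pi4ka. They are the 5 with the highest Pearson r to Sirt2 in the table, over 18 libraries after each genotype's mean was subtracted, and no p is given because they were picked as the highest. The zinc finger gene Zfp276 had r = 0.87 and rho = 0.82, from 1 to 30 reads per library. Mrm3, which encodes a methyltransferase of mitochondrial ribosomal RNA, had r = 0.82 and rho = 0.81. Pi4ka, a phosphatidylinositol kinase with 91 to 361 reads per library, had r = 0.82 and rho = 0.67. Without WT 7 and KO 3, the 2 libraries farthest from the median of Sirt2, the r of the 5 genes ranged from 0.63 to 0.85.

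None of the other genes of NAD use and supply passed the test, against the background of 0%. Of 33 other NAD consumers and genes of ADP-ribose handling, 22 were measured, 12 with a fold change above 0 and 10 below, with a median log2 fold change of 0.037, against -0.0025 over all genes. The 11 listed PARP-family genes among them had 8 above 0 and 3 below and ranged from -0.27 to 0.92. Parp3, an ADP-ribosyltransferase active at DNA breaks, was at 1.48 ± 0.77 in KO (SD, n = 10) and 0.55 ± 0.70 in WT (SD, n = 8), from 0 to 16 reads per library. Limma gave it p = 0.0308 and an adjusted p = 0.925. Chd1l, a chromatin remodeller recruited by poly(ADP-ribose), had a fold change of -0.24 (limma adjusted p = 0.957). Parp6 and Parp14, at 5.81 and 5.47 on average over 18 libraries, were read at levels like those of Sirt7 and Sirt2. The PARP genes Parp9, Parp10, Parp12 and Parp14 had fold changes of 0.15, 0.38, 0.39 and 0.26, none of which passed. They were named after values had been seen. The 3 family genes below 0 were Parp11 at -0.14, Tnks2 at -0.12 and Parp16 at -0.27.

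Of 26 genes of NAD synthesis and salvage, 12 were measured, 7 above 0 and 5 below, with a median of 0.12. Nadsyn1, which makes NAD from its acid form, was at 1.80 ± 0.53 in KO (SD, n = 10) and 0.80 ± 0.90 in WT (SD, n = 8), from 0 to 16 reads. Limma gave it p = 0.0148 and an adjusted p = 0.897. Nnt, the mitochondrial transhydrogenase that uses NADH to make NADPH, was at 5.09 ± 0.38 in KO and 5.34 ± 0.59 in WT (limma adjusted p = 0.955). Of 30 sirtuin substrates and regulated genes, 26 were measured, 12 above 0 and 14 below, with a median of -0.0042. Kat8, an acetyltransferase of histone H4, had a fold change of -0.43 and Txnip, a thioredoxin inhibitor induced by glucose, one of 0.67, and neither passed (limma adjusted p = 0.925 and 0.945). Of 18 genes of calcium signalling, listed for the second messengers of CD38 and not for cyclic ADP-ribose alone, 14 were measured. Of these, 6 were above 0 and 8 below, with a median of -0.031. Camk2b, a calcium-dependent kinase subunit, had a fold change of 0.25 and Fkbp1a, whose product binds ryanodine receptors, one of -0.28, with limma adjusted p = 0.951 and 0.953. Ryr1, Ryr2 and Ryr3 had no row in the table.

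Markers of blood cells, in which Cd38 and Bst1 are known to be expressed, spanned a wide range of levels. Of 12 lymphocyte markers, Ptprc alone was measured, at 1 to 61 reads per library, 1.83 ± 1.39 in KO (SD, n = 10) and 1.12 ± 0.88 in WT (SD, n = 8) on the log2 scale (limma adjusted p = 0.945). The mean log2 level of 7 measured myeloid markers of 12 ranged from 1.88 to 3.92 in KO and from 2.19 to 3.46 in WT. Among them the macrophage complement gene C1qa was the highest, at 5.67 ± 0.72 in KO and 6.09 ± 0.49 in WT, and Adgre1 the lowest, at 0.34 ± 1.13 in KO and 0.54 ± 1.16 in WT.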

How the data were processed

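Islet RNA of 18 mice was sequenced from transcript 3' ends (QuantSeq FWD kit, per the labels' protocols), 1 library per animal number. The genome build is GRCm38 and the tools named are HTSeq 0.6.1, edgeR and STAR 2.5.2, with no role given, per the submitters' processing notes. No source used here gives the annotation, filter or prior count. The authors deposited log2 values, with a common minimum of -0.83, or 0.562 CPM. With that floor subtracted, 100% of values per library were whole multiples of 0.238 to 0.411 CPM within 0.05 reads, which gave read numbers. The 73 library pairs within a genotype differed beyond sampling noise (chi-square per degree of freedom 6.22 to 44.3, genes with a mean of at least 10 reads).

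Groups are the genotype labels, and libraries were numbered within them. The members, lists and alternatives were chosen with earlier results of these data known. KO was compared with WT by limma 3.58.1 in R 4.3.3 (mean-variance trend, two-sided, no covariate, all 18 libraries) over 10509 genes. Requiring a log2 value over 0 in 8 or more libraries removed 0 genes. Calls need a Benjamini-Hochberg adjusted p under 0.05. The labels name no batch, and p-values measure the spread between these libraries, and PCR copies are not separated. The fit was tested on simulated data. Single values were tested by exact permutation over 43758 regroupings, correlations by 100000 permutations. Named list genes have the smallest p of their list in each direction, and Sirt2 was compared with the 5 genes of highest correlation. Other PARP-family genes, neighbours within 3000 bases, motifs and Ptprc were added after values had been seen. Of the Entrez identifiers, 10508 matched the RefSeq table of GRCm38.p6.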

Additional observations from a re-analysis of the deposited data

Results flagged for a closer look

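In 16 groups (8 genes, KO and WT each), 3 held a library far from the others, where chance flags about 1 in 20 groups. That rate is for independent, normally distributed values. The share over all listed genes is not given here, so the count does not set these genes apart. Sirt1 in KO 3 was at 1.33 on the log2 scale, from 5 reads, with a gap of 0.560 of the KO range to the next library. Sirt6 in KO 9 was at 0.81, from 5 reads, with a gap of 0.666 of the KO range. Sirt2 in WT 7 was at 4.12, from 41 reads, with a gap of 0.527 of the WT range, just past the limit of 0.526. KO 3 and WT 7 are among the 3 libraries with the most genes at no read, and KO 9 is not.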

How the results depend on the processing

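Under all 18 fits without 1 library and under the other scalings, constants, filters, variance models, covariates, tests and library sets, 0 of the 8 genes and 0 of all genes were called at an adjusted p under 0.05, and 0 at 0.10 with all libraries. At an unadjusted p under 0.05 limma had 567 genes with all libraries, 461 to 729 without 1 library each, and 916 in the 12 libraries of mixed runs with a run term. Of 279 member fold changes under alternatives, 22 had the opposite sign, all in Sirt1, Sirt3 and Sirt7, and the cause was not tested. The 279 include alternatives that leave a fold change as it was and could not turn its sign. These are the other filters, the fit without a trend, the robust fit and the permutation test. Sirt1 was at -0.024 with sample weights and -0.052 in the rank-sum comparison, and at -0.12 to 0.27 without 1 library each. Sirt3 was at 0.0049 over the 12 libraries of mixed runs and 0.15 there with the run as a term, and at -0.16 to 0.089 without 1 library each. Sirt7 was at -0.030 with sample weights and -0.038 without KO 2, KO 3 and WT 7, and at -0.026 to 0.10 without 1 library each. Sirt2, Sirt5, Sirt6, Parp1 and Parp2 kept their sign. Without 1 library each, Sirt5 ranged from -0.50 to -0.029, Sirt6 from -0.46 to -0.13 and Parp2 from -0.32 to -0.080. Sirt5 has no value under the stricter filter (log2 over 3 in 8 or more libraries). The number of level steps larger than their spread was 2 to 3, and the number of genes more variable than the median of like-level genes 4 to 5. Which genes these were changed, however. Without KO 2, KO 3 and WT 7, Sirt2 exceeded 33.5% of like-level genes in SD, Sirt5 47% and Sirt7 50.5%. In the 12 libraries of mixed runs Sirt6 exceeded 11% and Parp2 63%. No paired analysis was possible because the labels give no pairing of KO with WT mice, and the runs of animal numbers served as a block in 12 libraries instead. Counting alone would give an SD of 0.41 for Sirt5 (1 to 30 reads), whose SD within genotype was 1.00, and of 0.25 for Sirt1 (5 to 77 reads), whose SD was 0.83.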
